A study of Mus musculus with 16 samples.

Results

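Potassium channel genes were taken as all genes whose symbol starts with Kcn, followed by letters that name the family and a number, and whose mean was at least 0.1 TPM over the 8 libraries of day 5 or of day 7. Of the 92 symbols of that form, 81 reached this level: 73 on both days, 4 on day 5 alone and 4 on day 7 alone. The other 11 stayed below it. They are 81 of the genes of tables in which 22581 genes on day 5 and 24606 on day 7 reached the same level. By symbol prefix, 36 belong to the voltage-gated class (Kcna, Kcnb, Kcnc, Kcnd, Kcnf, Kcng, Kcnh, Kcnq, Kcns and Kcnv), 14 to the inward-rectifier class (Kcnj) and 11 to the two-pore class (Kcnk). A further 8 belong to the families Kcnma, Kcnn, Kcnt and Kcnu, whose channels are opened by calcium or sodium inside the cell, except that of Kcnu1, which opens with voltage and alkaline pH. The remaining 12 encode auxiliary subunits that form no pore of their own (Kcnab, Kcne, Kcnip and Kcnmb). Close to the limit, Kcnj5 (0.121 TPM), Kcng1 (0.135) and Kcna10 (0.136) lay just inside by the higher of their day means, and Kcne4 (0.0938), Kcnq1 (0.0575) and Kcnmb3 (0.0563) just outside.

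The libraries come from a study of RUS, a long non-coding RNA of developing mouse neurons, in embryonic neural stem cells (NSC). The cells were grown from cortices of C57BL/6 embryos at E15-16, which were pooled and of mixed sex. They were infected with a lentivirus for a scrambled shRNA (scr shRNA, called control here) or for an shRNA against RUS (RUS shRNA, called RUS KD). RNA was taken on day 5 after seeding, when the mitogen bFGF was withdrawn to start differentiation, and on day 7. There were 4 libraries in each of the 4 groups, 16 in all. All groups therefore carry a lentiviral shRNA, and the knockdown rests on a single hairpin. The labels call the 4 replicates of a condition experiments and do not say whether they came from separate dissections, so p-values measure the spread between these libraries.

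Potassium channels let potassium leave the cell and so pull the membrane towards a negative voltage. Voltage-gated channels open on depolarisation and end or space action potentials, inward rectifiers and two-pore channels hold the resting voltage, and calcium- or sodium-activated channels follow the ion load of an active cell. In the brain, astrocytes use the inward rectifier Kcnj10 to take up potassium that neurons release, whereas most voltage-gated members are known from neurons.

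Levels are TPM, which are per transcript length and can be set side by side between genes. Each library was scaled to the other libraries of its day by a factor between 0.920 and 1.11 on day 5 and between 0.991 and 1.01 on day 7. Changes are log2 fold changes of scaled TPM + 0.1, which understates the change of genes near 0.1 TPM. A gene was called higher or lower at an adjusted p under 0.05 from limma over all genes tested, 2-sided. TPM hold no read numbers, so the depth of the libraries is unknown. RUS itself, listed as Gm20754, ranged from 0.11 to 0.24 TPM in control and from 0 to 0.32 in RUS KD on day 5, and from 0.26 to 0.72 and from 0 to 0.54 on day 7, so the groups overlapped. Its mean was 71.0% of control on day 5 (exact permutation test, p = 0.543) and 43.2% on day 7 (exact p = 0.143), where 0.0286 is the smallest p that 4 against 4 libraries allow. With 1 library left out at a time, it ran from 32.9% to 94.7% on day 5 and from 25.2% to 57.7% on day 7. The lowest values were those without RUS KD replicate 4 on day 5 and without RUS KD replicate 1 on day 7. The study also measured RUS by RT-qPCR for this experiment and reported a reduction in RUS KD that was incomplete. Replicate 4 of RUS KD on day 5, with the highest Gm20754 of its group, was the nearest of its group to the control mean in 9 of the 26 channel genes called on day 5 and the farthest from it in 8, and values without it are given where this matters. Each day was deposited as a table of its own, so day and table cannot be told apart.

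Of the marker lists, that of neural stem cells and cycling cells had 6 of 8 genes lower and 1 higher in RUS KD on each day, and its summed level ranged from 737 to 799 scaled TPM in control and from 527 to 577 in RUS KD on day 5, and from 909 to 969.8 and from 541 to 580.4 on day 7. The oligodendrocyte lineage list had 4 of 8 genes lower on day 5 and 6 on day 7, and none higher. The microglia list had 3 of 8 genes lower on day 5 and all 8 on day 7. The neuron list of 8 genes had 3 higher and 2 lower on day 5 and 4 higher and 2 lower on day 7, and the astrocyte list of 8 genes 2 and 1 on day 5 and 3 and 2 on day 7. Of 7 endothelial, mural and fibroblast genes tested, 1 was higher and 1 lower on day 5 and 2 and 1 on day 7, where Cldn5 was at 0 in every control library and Cdh5 in every RUS KD library. The part of the stem cell list in the results was not tested. The cultures held RNA of several cell types, and in such bulk samples fewer cells of a type and less RNA per cell cannot be told apart.

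A single glial gene made up much of the potassium channel RNA. Kcnj10, at chr1:172341210-172374085 (GRCm38), had 222 ± 10.3 scaled TPM (SD, n = 4) in control on day 5 and 356 ± 4.701 on day 7, which was 36.4% and 46.2% of the summed level of the 81 genes. The next gene on both days was Kcnk1 with 56.3 and 56.1 scaled TPM, and its range did not overlap that of Kcnj10. On day 5, Kcnk1 was followed by Kcnip3 (49.8), whose range overlapped its own, and then by Kcna6 (36.1), Kcnd3 (29.3), Kcnk10 (28.2) and Kcnk2 (26.00); Kcnd3 and Kcnk10 overlapped. Most members were far lower. The median was 1.12 scaled TPM in control on day 5 and 1.29 on day 7, and 36 and 31 of the 81 genes were below 1.

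The summed level was lower in RUS KD on both days, and Kcnj10 made up the larger part of the difference on day 5 and all of it on day 7. On day 5 the 4 control libraries summed to 626, 602, 608 and 603 scaled TPM, and the RUS KD libraries to 416, 425, 409 and 449. On day 7 the sums were 766, 775, 780.5 and 763 in control and 571, 572, 590.2 and 552 in RUS KD, again with no overlap. Without Kcnj10, the means were 388 ± 4.41 and 349 ± 5.54 on day 5 (SD, n = 4) and 415 ± 3.99 and 423 ± 6.40 on day 7. The summed level of the voltage-gated class was 134 ± 4.50 and 129.5 ± 7.64 on day 5, and 149 ± 1.90 in control against 179.7 ± 4.30 in RUS KD on day 7. That of the two-pore class was 115 ± 4.79 against 95.4 ± 3.80 on day 5 and 131 ± 3.86 against 98.8 ± 5.40 on day 7. These sums are descriptions and were not tested.

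**Figure D1:**
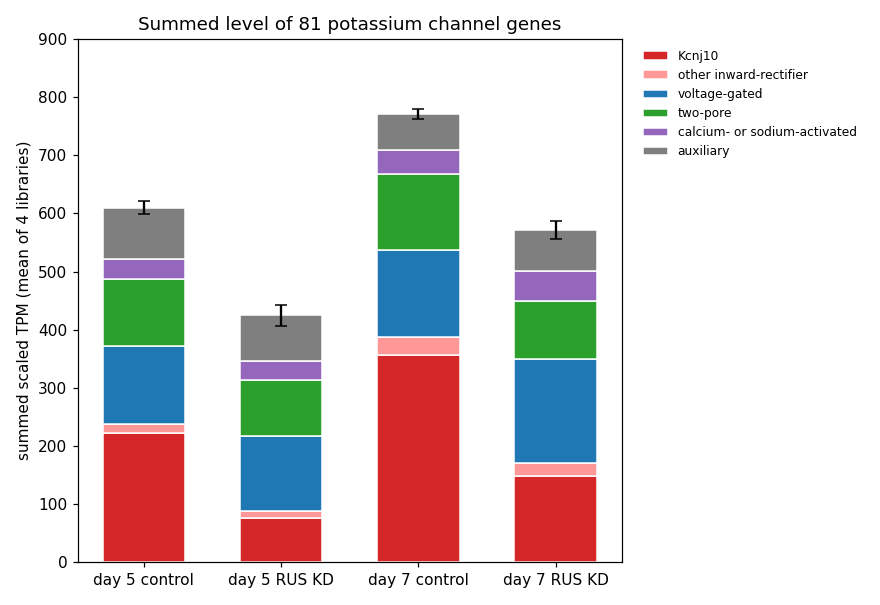
Mean summed scaled TPM (vertical axis, linear, from 0) of the 81 potassium channel genes in the 4 groups of 4 libraries, split by class with Kcnj10 apart, with the SD of the total as error bar. The red Kcnj10 block shrinks in both RUS KD bars, and on day 7 the voltage-gated block is larger in RUS KD while the two-pore block is smaller.

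On day 5, 6 of the 77 potassium channel genes tested were higher in RUS KD and 20 were lower. Of all genes tested, 14.8% were higher and 17.9% lower, so the share of channel genes called lower (26.0%) was above that of all genes and the share called higher (7.79%) below it. On day 7 the picture was even: 20 of 77 were higher and 18 lower, beside 23.4% and 25.8% of all genes. The median log2 fold change of the channel genes was −0.14 on day 5 and −0.015 on day 7, against −0.061 and −0.029 over all genes. With TPM as deposited, the median of all genes on day 5 moved to −0.21, the calls among all genes changed from 3349 higher and 4034 lower to 1768 and 6037, and those among the channel genes to 2 higher and 27 lower. Under quantile normalization 11 channel genes were higher and 12 lower on day 5. On day 7, TPM as deposited gave 20 higher and 18 lower. Without replicate 4 of RUS KD, 6 channel genes were higher and 20 lower on day 5. Across both days, 5 genes were higher on each day (among them Kcna2, Kcna6, Kcnj4 and Kcnn2), 8 were lower on each (Kcnd3, Kcne1, Kcnj10, Kcnj13, Kcnk10, Kcnk2, Kcnn1 and Kcnn4), and 2 were lower on day 5 and higher on day 7 (Kcnc1 and Kcnip3). Of the other genes tested on both days, 24 were called on neither. These are counts of the 73 channel genes tested on both days. The matching shares over all genes were not computed, so the counts are given as a description alone.

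The counts differed between the classes, most of all on day 7. In the voltage-gated class, 4 of 34 genes were higher and 6 lower on day 5, and 11 were higher and 2 lower of 34 on day 7. In the inward-rectifier class, 1 of 13 was higher and 6 lower on day 5, and 2 were higher and 3 lower on day 7. In the two-pore class no gene was higher on either day, with 3 of 11 lower on day 5 and 7 of 10 on day 7. The class medians were −0.17, −0.58 and −0.091 on day 5 and 0.15, −0.15 and −0.55 on day 7, in that order; the voltage-gated median of day 5 turned to 0.020 under quantile normalization. The two-pore median of day 5 moved to −0.27 without control replicate 1 and to −0.46 over genes of at least 1 TPM. The inward-rectifier median of day 5 moved to −0.37 without control replicate 2 and to −0.18 with 1 added before the log2, and that of day 7 to −0.42 over genes of at least 1 TPM and to −0.042 under quantile normalization. No test compared the classes, and these counts are given beside the shares of all genes above.

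**Figure D2:**
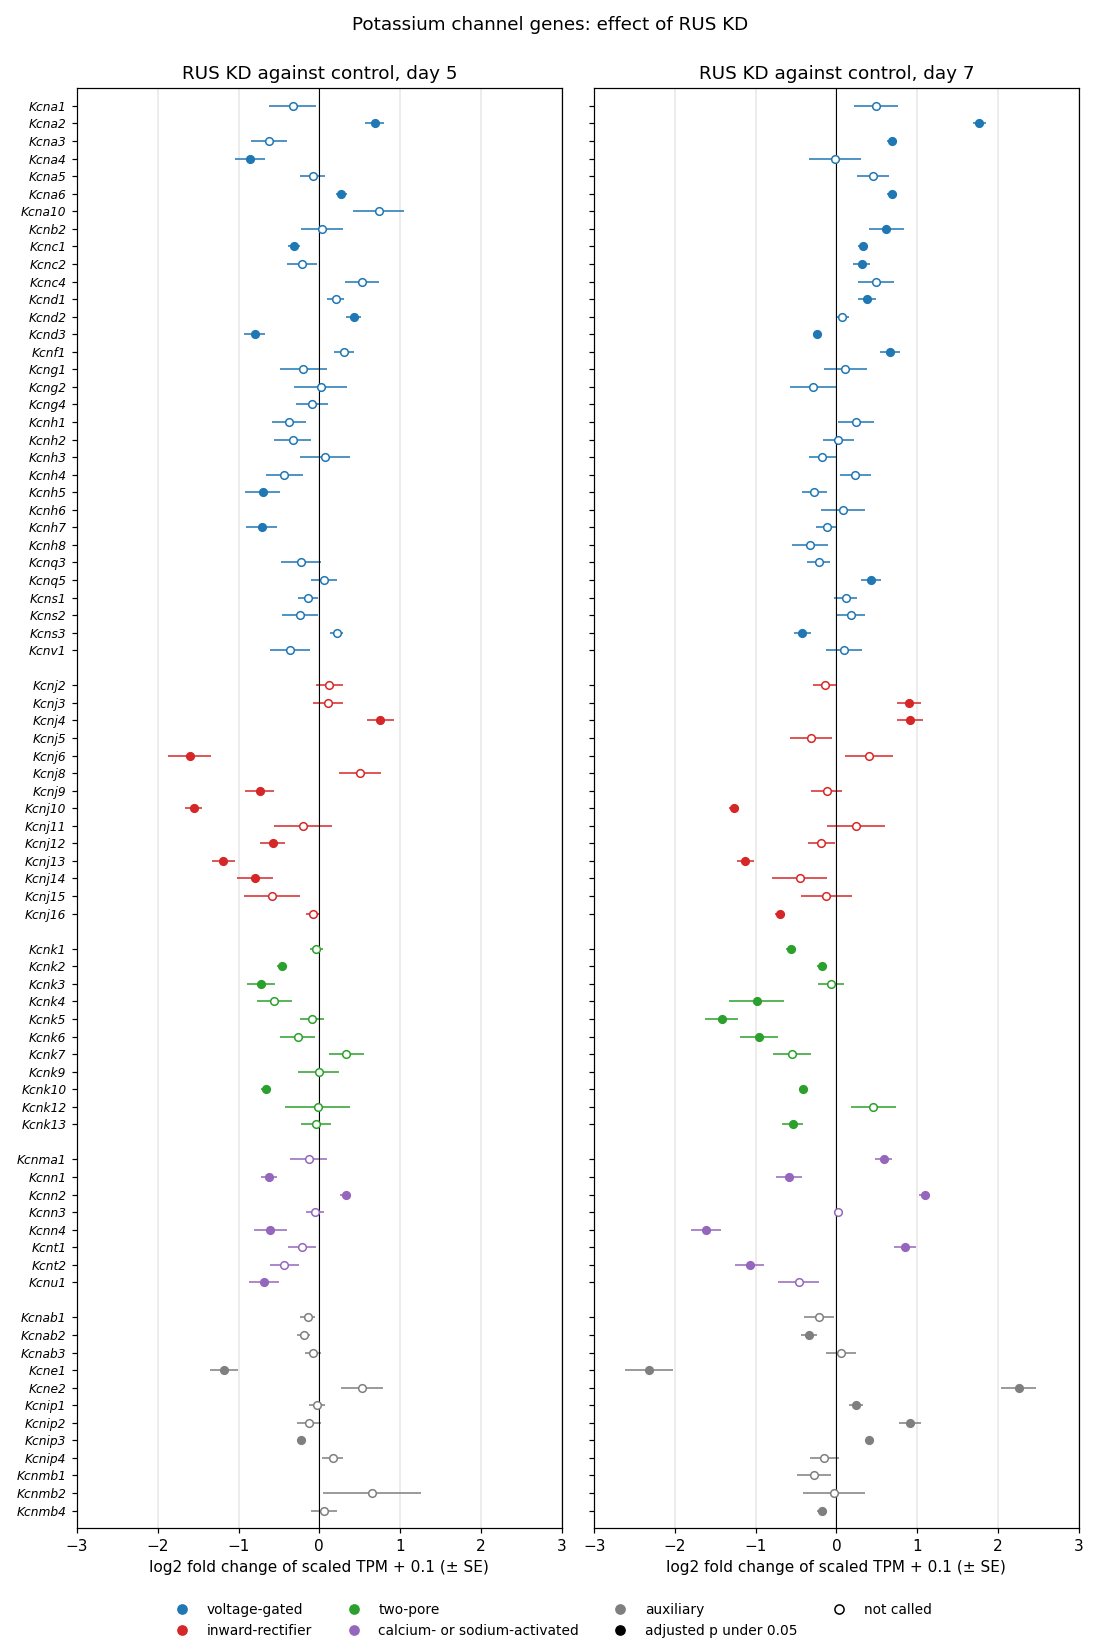
Log2 fold change of RUS KD against control (horizontal axis, with limma's standard error) for the potassium channel genes reported by name, one row per gene, grouped by class, for day 5 (left) and day 7 (right). Filled points are called at an adjusted p under 0.05. On day 7 most filled voltage-gated points lie to the right of 0 and all filled two-pore points to the left.

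The inward rectifiers set the resting voltage, and the largest decrease in TPM of all 81 genes was here. Kcnj10, the channel of astrocytes that clears potassium, had 236, 219, 222 and 211 scaled TPM in the control libraries of day 5 and 70.02, 74.1, 65.97 and 93.6 in RUS KD (log2 fold change −1.56, SE 0.10, limma adjusted p = 1.75e-05). The day 7 values were 352, 358, 362 and 353 in control and 145, 158, 160.5 and 129 in RUS KD (log2 fold change −1.27, SE 0.062, limma adjusted p = 4.51e-07). Every RUS KD library lay below every control library on both days, and the difference between the days was not called (adjusted p = 0.112, limma). Replicate 4 of RUS KD was the highest of its group on day 5, and without it the log2 fold change was −1.66 and the difference between the days was called (log2 0.38, limma adjusted p = 0.00335), as it was with TPM as deposited (log2 0.45, limma adjusted p = 0.0321). The summed astrocyte list was higher in RUS KD: it ranged from 4943.6 to 5167 scaled TPM in control and from 6372 to 6623 in RUS KD on day 5, and from 3565 to 3693 and from 4243 to 4471 on day 7, with no marker at 0. Gfap and Aldoc made up most of that difference (log2 fold changes 0.60 and 0.57 on day 5, 0.35 and 0.61 on day 7), and the median over the 8 markers was 0.018 on day 5 and 0.038 on day 7. Slc1a2 was lower on day 5 (−0.65), and S100b (−0.54) and Slc1a3 (−0.15) on day 7. The oligodendrocyte lineage list, whose cells are also known to express Kcnj10, ranged from 227 to 303 against 152 to 235 on day 5 and from 403 to 446 against 262 to 287 on day 7. The part of either list in the Kcnj10 result was not tested.

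Kcnj16, whose product pairs with that of Kcnj10 in glia, was not called on day 5 and fell on day 7. It had 4.402, 4.47, 4.198 and 4.58 scaled TPM in control and 4.42, 4.39, 3.63 and 4.303 in RUS KD, ranges that overlap (95% interval of the log2 fold change −0.28 to 0.13, limma adjusted p = 0.547). Its day 7 values were 19.4, 18.6, 18.7 and 20.5 in control and 12.2, 12.7, 11.9 and 10.8 in RUS KD (log2 fold change −0.69, SE 0.062, limma adjusted p = 1.37e-05), with no overlap. In control it was the inward rectifier with the largest rise between the days (log2 change 1.87, SE 0.072), and its knockdown effect differed between the days by −0.63 (limma adjusted p = 0.000370).

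Kcnj13, a channel of ion-transporting epithelia such as the choroid plexus, was lower on both days. It had 4.11, 5.56, 4.502 and 5.205 scaled TPM in control and 2.39, 1.76, 1.800 and 2.33 in RUS KD on day 5 (log2 fold change −1.19, SE 0.14, limma adjusted p = 0.000297). The day 7 values were 6.65, 6.02, 5.72 and 6.44 in control and 3.04, 2.99, 2.88 and 2.29 in RUS KD (log2 fold change −1.13, SE 0.11, limma adjusted p = 1.95e-05). The groups did not overlap on either day. Its exons overlap those of Gigyf2 on the other strand, and as no source used here states strand-specific counting, reads of the pair may not be told apart.

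The promoters of Kcnj10 and Kcnj13, the inward rectifiers that were lower on both days, are printed to set their composition side by side. Each is the RefSeq window of 250 bases before and 50 bases from the start on, in GRCm38.p6, read 5′ to 3′ on the strand of the gene. Capitals mark matches on either strand to the TATA box spelled TATAAA, to the CCAAT box, to the GC box spelled GGGCGG, to the core word of the factor Rbpj, which is GTGGGAA, or to either of the E-box words, CAGCTG in one form and CAGATG in the other.
Kcnj10, chr1:172340960-172341259, plus strand: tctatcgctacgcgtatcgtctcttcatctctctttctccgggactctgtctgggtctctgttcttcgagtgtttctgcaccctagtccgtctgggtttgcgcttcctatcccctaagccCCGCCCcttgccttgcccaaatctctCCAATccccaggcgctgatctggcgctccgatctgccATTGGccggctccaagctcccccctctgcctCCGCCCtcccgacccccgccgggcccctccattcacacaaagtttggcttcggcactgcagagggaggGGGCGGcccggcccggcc
Kcnj13, chr1:87394680-87394979, minus strand: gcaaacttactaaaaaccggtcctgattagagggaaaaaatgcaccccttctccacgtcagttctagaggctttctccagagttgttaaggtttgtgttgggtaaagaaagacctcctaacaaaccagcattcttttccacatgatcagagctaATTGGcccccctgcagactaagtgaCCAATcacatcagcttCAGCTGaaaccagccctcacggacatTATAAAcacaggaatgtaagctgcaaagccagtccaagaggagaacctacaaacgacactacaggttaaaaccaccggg
The Kcnj10 window was 63.7% G and C with 3 GC boxes and 2 CCAAT boxes. That of Kcnj13 was 46% G and C, with a TATA box 29 bases before the start, 2 CCAAT boxes and an E-box.

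Kcnj4, a strong inward rectifier of neurons, was the member of the class that was higher on both days. It had 1.26, 0.967, 1.21 and 1.23 in control and 1.55, 2.38, 2.41 and 1.89 in RUS KD on day 5 (log2 fold change 0.76, SE 0.17, limma adjusted p = 0.00755), and 1.31, 1.21, 1.498 and 0.965 in control and 2.84, 2.15, 2.08 and 2.63 in RUS KD on day 7 (log2 fold change 0.91, SE 0.16, limma adjusted p = 0.00113). Kcnj12, of the same kind, was lower on day 5 (1.29 ± 0.137 against 0.833 ± 0.117, SD, n = 4; log2 fold change −0.58, SE 0.15, limma adjusted p = 0.0164). Its call was lost under quantile normalization (limma adjusted p = 0.0836) and without day 5 control replicate 3 (limma adjusted p = 0.0554); on day 7 it had 1.05 ± 0.221 and 0.898 ± 0.0591 and was not called (limma adjusted p = 0.386).

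The subunits of the G protein-gated channels of neurons (Kcnj3, Kcnj6 and Kcnj9) did not move together. Kcnj3 was not called on day 5, and on day 7 had 0.706, 0.864, 1.06 and 0.814 in control and 1.85, 1.702, 1.61 and 1.54 in RUS KD (log2 fold change 0.89, SE 0.15, limma adjusted p = 0.000760). Kcnj6, which was chosen for mention after its values were seen, had 0.737, 0.527, 0.427 and 0.586 in control and 0.130, 0.0541, 0.117 and 0.188 in RUS KD on day 5 (log2 fold change −1.60, SE 0.27, limma adjusted p = 0.00179). By day 7 its control level was 0.172, 0.129, 0.139 and 0.231, near the level added before the log2, and RUS KD had 0.201, 0.150, 0.329 and 0.366 (limma adjusted p = 0.292). Kcnj9 and Kcnj14 were lower on day 5 alone, and Kcnj2, Kcnj11 and Kcnj15 were called on neither day. Kcnj8 was tested on day 5 alone and Kcnj5 on day 7 alone, and neither was called.

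Two-pore channels carry the leak current. The mechanosensitive TREK genes Kcnk2 and Kcnk10 were, after Kcnk1, the most abundant of them and were lower on both days. Kcnk10 had 27.95, 27.5, 28.98 and 28.5 scaled TPM in control and 18.1, 17.99, 16.02 and 19.1 in RUS KD on day 5 (log2 fold change −0.66, SE 0.064, limma adjusted p = 9.50e-05), and 25.1, 23.3, 23.4 and 24.97 in control and 18.6, 17.9, 18.3 and 17.5 in RUS KD on day 7 (log2 fold change −0.42, SE 0.045, limma adjusted p = 4.97e-05). Kcnk2 had 26.7, 25.2, 25.97 and 26.1 in control and 17.7, 18.5, 18.4 and 20.9 in RUS KD on day 5 (log2 fold change −0.46, SE 0.063, limma adjusted p = 0.000605), and the groups did not overlap for either gene. On day 7 Kcnk2 had 39.6, 46.4, 43.6 and 41.8 in control and 35.7, 38.3, 41.3 and 35.97 in RUS KD (log2 fold change −0.18, SE 0.063, limma adjusted p = 0.0387). Here the groups overlapped, and the call was lost under 8 of 17 alternatives, among them the fits without day 7 RUS KD replicate 1, 2 or 4 or day 7 control replicate 2, 3 or 4 (limma adjusted p between 0.0534 and 0.102). Kcnk4, the other gene of that group, was called lower on day 7 (1.03 ± 0.480 against 0.439 ± 0.111, SD, n = 4; log2 fold change −0.99, SE 0.34), and lost its call under 9 of 16 alternatives, among them the fits without day 7 RUS KD replicate 1, 3 or 4 or day 7 control replicate 2, 3 or 4 (limma adjusted p between 0.0575 and 0.0958). It shares exon sequence with Catsperz on the same strand.

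Further two-pore genes were lower on day 7 without a call on day 5. Kcnk1, the weakly rectifying TWIK channel, had 58.7, 55.6, 58.4 and 51.6 in control and 38.5, 37.3, 41.3 and 34.6 in RUS KD on day 7 (log2 fold change −0.56, SE 0.062, limma adjusted p = 5.49e-05). Its day 5 values were 56.3 ± 4.36 and 54.9 ± 5.199 (95% interval of the log2 fold change −0.22 to 0.15, limma adjusted p = 0.768), called lower with TPM as deposited alone (log2 −0.20, limma adjusted p = 0.0399). Kcnk5, an acid-sensitive channel, showed the largest change of the class: 1.56, 2.46, 1.38 and 1.96 in control and 0.603, 0.501, 0.738 and 0.614 in RUS KD on day 7 (log2 fold change −1.42, SE 0.20, limma adjusted p = 0.000269), with no overlap. On day 5 it had 1.03 ± 0.0767 and 0.964 ± 0.152 (limma adjusted p = 0.684). Kcnk6 had 0.797 ± 0.129 and 0.369 ± 0.122 on day 7 (log2 fold change −0.96, SE 0.23, limma adjusted p = 0.00678), and Kcnk13, known from microglia, was lower on day 7 as well. The summed microglia list ranged from 205 to 219 scaled TPM in control and from 87.0 to 112 in RUS KD on that day, with no marker at 0, and its part in these results was not tested. Kcnk3, another acid-sensitive channel, was lower on day 5 (0.889 ± 0.0409 against 0.506 ± 0.0951; log2 fold change −0.72, SE 0.17, limma adjusted p = 0.0108) and not called on day 7 (1.07 ± 0.114 against 1.03 ± 0.193). Kcnk7 and Kcnk12 were called on neither day, and Kcnk9 was tested on day 5 alone and not called.

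Among voltage-gated channels, the Shaker genes Kcna2 and Kcna6 rose with RUS KD on both days. Kcna2, a channel of axons, had 4.13, 3.64, 3.95 and 3.399 scaled TPM in control and 5.86, 5.71, 5.604 and 7.505 in RUS KD on day 5 (log2 fold change 0.69, SE 0.11, limma adjusted p = 0.00180). On day 7 control had 3.44, 3.77, 4.29 and 4.03 and RUS KD had 14.02, 14.1, 12.7 and 13.1 (log2 fold change 1.77, SE 0.079, limma adjusted p = 2.83e-07), the largest increase of the class. No library of the 2 groups overlapped on either day. Kcna6, the most abundant member of the class on day 5, had 36.99, 37.97, 34.6 and 34.7 in control and 40.9, 40.5, 44.8 and 48.7 in RUS KD (log2 fold change 0.27, SE 0.070, limma adjusted p = 0.0154). The day 5 call of Kcna6 was lost with TPM as deposited (limma adjusted p = 0.370) and without day 5 control replicate 3 (limma adjusted p = 0.0507). On day 7 it had 15.02, 13.4, 15.2 and 14.4 in control and 23.00, 23.2, 22.2 and 25.4 in RUS KD (log2 fold change 0.69, SE 0.060, limma adjusted p = 1.15e-05), again with no overlap.

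The promoters of the Shaker genes Kcna2 and Kcna6, higher on both days, are printed in the same way, with the same words searched.
Kcna2, chr3:107101317-107101616, plus strand: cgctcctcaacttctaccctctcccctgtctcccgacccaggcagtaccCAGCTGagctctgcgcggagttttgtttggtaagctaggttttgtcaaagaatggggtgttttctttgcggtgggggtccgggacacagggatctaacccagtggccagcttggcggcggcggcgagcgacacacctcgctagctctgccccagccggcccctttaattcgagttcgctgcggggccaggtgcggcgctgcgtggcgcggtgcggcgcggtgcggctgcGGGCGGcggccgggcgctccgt
Kcna6, chr6:126740625-126740924, minus strand: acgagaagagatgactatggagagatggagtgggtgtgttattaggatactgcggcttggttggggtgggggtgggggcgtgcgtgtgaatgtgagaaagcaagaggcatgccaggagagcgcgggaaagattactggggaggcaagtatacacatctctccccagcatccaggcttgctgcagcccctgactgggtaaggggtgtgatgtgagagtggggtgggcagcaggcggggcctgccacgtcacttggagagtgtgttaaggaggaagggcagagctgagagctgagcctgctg
The Kcna2 window was 66.7% G and C, with a GC box and an E-box, and that of Kcna6 was 58.3% G and C with none of these words.

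Kcna3, a Shaker gene that microglia and lymphocytes are known to express beside neurons, had 2.25, 1.23, 1.53 and 1.55 in control and 1.07, 0.865, 0.767 and 1.42 in RUS KD on day 5, which was not called (log2 fold change −0.63, limma adjusted p = 0.0616). It was called lower on day 5 without replicate 4 of RUS KD (log2 −0.78, limma adjusted p = 0.0204), without replicate 2 of control and with TPM as deposited. The day 7 values were 6.31, 6.57, 7.09 and 6.97 in control and 10.7, 11.2, 10.7 and 10.96 in RUS KD (log2 fold change 0.69, SE 0.058, limma adjusted p = 9.86e-06). Kcna4 was lower on day 5 (1.17 ± 0.253 against 0.596 ± 0.0806; log2 fold change −0.85, SE 0.19, limma adjusted p = 0.00710) and not called on day 7 (0.536 ± 0.257 against 0.520 ± 0.196). Kcna1 and Kcna5, which lie next to RUS binding sites in the chromatin data of the study, were called on neither day over all libraries. Kcna1 had 0.274 ± 0.0454 and 0.208 ± 0.106 on day 5 and 0.170 ± 0.0473 and 0.282 ± 0.0926 on day 7 (adjusted p = 0.413 and 0.172, limma). Kcna5 had 1.08 ± 0.0985 and 1.02 ± 0.171 on day 5 and 0.827 ± 0.206 and 1.16 ± 0.178 on day 7 (adjusted p = 0.719 and 0.0844, limma), and was called higher on day 7 without control replicate 3 (log2 0.58, limma adjusted p = 0.0384) and under quantile normalization (log2 0.55, limma adjusted p = 0.0398).

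Kcnd3, which carries the transient A-type current, was lower on both days. It had 33.2, 28.2, 28.8 and 27.1 in control and 15.4, 16.3, 14.4 and 21.8 in RUS KD on day 5 (log2 fold change −0.80, SE 0.13, limma adjusted p = 0.00129; −0.93 without replicate 4 of RUS KD), and 46.7, 48.3, 49.6 and 51.2 in control and 41.8, 40.5, 42.1 and 42.01 in RUS KD on day 7 (log2 fold change −0.23, SE 0.039, limma adjusted p = 0.000716). Its sister gene Kcnd2 was higher on day 5 alone.

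Kcnc1, the fast delayed rectifier of rapidly firing neurons, changed direction between the days. In RUS KD it was below control on day 5, with 9.77, 8.699, 8.97 and 9.27 in control and 7.401, 7.36, 6.74 and 8.01 in RUS KD (log2 fold change −0.31, SE 0.076, limma adjusted p = 0.0119), a call lost under quantile normalization (adjusted p = 0.0717, limma). On day 7 it was above, with 8.83, 8.27, 8.74 and 8.05 in control and 9.99, 10.4, 11.1 and 11.1 in RUS KD (log2 fold change 0.33, SE 0.061, limma adjusted p = 0.00151). The ether-a-go-go genes Kcnh5 and Kcnh7 were lower on day 5. Kcnh5 had 1.02 ± 0.135 against 0.601 ± 0.196 (log2 fold change −0.70, SE 0.21, limma adjusted p = 0.0316), and its call was lost under 9 of 16 alternatives, among them the fits without day 5 RUS KD replicate 1, 2 or 3 or day 5 control replicate 1, 2 or 4 (limma adjusted p between 0.0590 and 0.0835). Kcnh7 had 1.23 ± 0.140 against 0.725 ± 0.199 (log2 fold change −0.72, SE 0.19, limma adjusted p = 0.0199), and lost its call under 6 of 16, among them the fits without day 5 RUS KD replicate 2 or 3 or day 5 control replicate 1 or 2 (limma adjusted p between 0.0525 and 0.0552). On day 7 none of the 8 Kcnh genes tested was called, where 23.4% of all genes were called higher and 25.8% lower.

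Other voltage-gated genes called higher on day 7 included Kcnb2, Kcnc2, Kcnd1, Kcnf1 and Kcnq5, none of which was called on day 5. Kcns3 was lower on day 7 alone. Of the 36 genes of the class, 18 were called on no day on which they were tested, among them the silent subunit Kcns1, which modifies other channels. The neuron list as a whole ranged from 549.5 to 619 summed scaled TPM in control and from 610.4 to 666 in RUS KD on day 5, and from 817 to 899 and from 799.6 to 925 on day 7, and the ranges overlapped on both days. No neuron marker was at 0. Map2 made up 39.2% of the sum in control on day 7 and was lower in RUS KD (log2 fold change −0.23), as was Stmn2 (−0.14). Snap25, Syt1, Gap43 and Rbfox3 were higher on day 7 (0.61, 0.57, 0.54 and 0.53). The median over the 8 neuron markers was −0.015 on day 5 and 0.33 on day 7. The part of neuron number in the voltage-gated results was not tested.

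**Figure D3:**
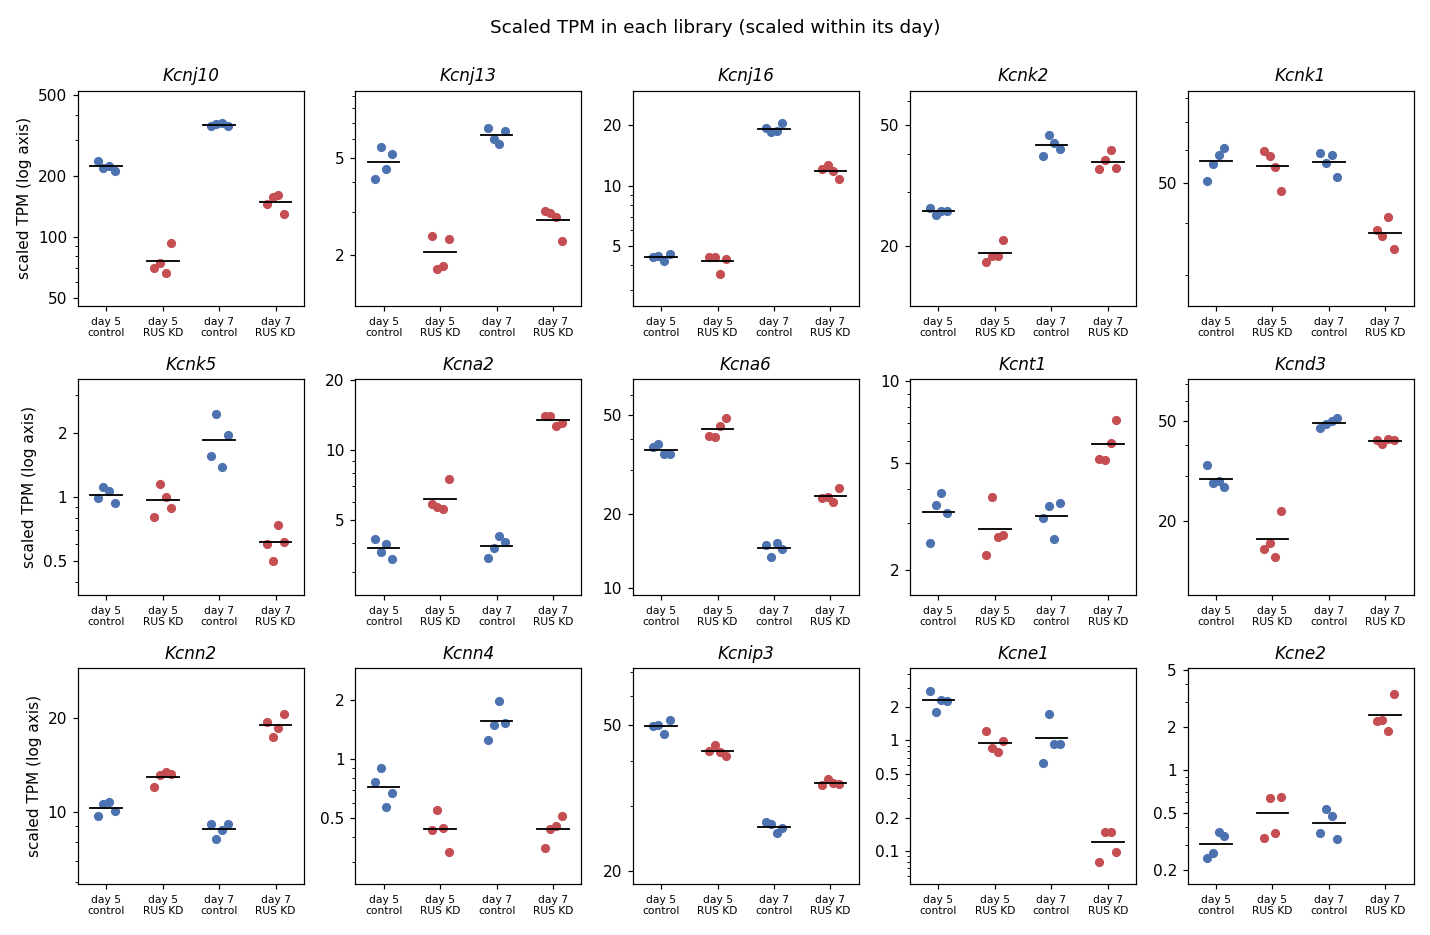
Scaled TPM (log axis) of 15 named genes in each of the 16 libraries, scaled within its day, with control in blue, RUS KD in red and the mean of 4 libraries as a line. Kcnj10, Kcnj13 and Kcne1 lie lower in RUS KD on both days, Kcna2, Kcna6 and Kcnn2 higher on both, and Kcnk1, Kcnk5 and Kcnj16 separate on day 7 alone.

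Of the 8 Kcnma, Kcnn, Kcnt and Kcnu genes, 1 was higher and 3 were lower on day 5 (all genes: 14.8% and 17.9%), and 3 were higher and 3 lower on day 7 (all genes: 23.4% and 25.8%). The class medians were −0.32 and −0.22, and the latter turned to 0.30 over genes of at least 1 TPM. Of the small-conductance genes, which follow action potentials, Kcnn2 had 9.71, 10.6, 10.8 and 10.1 scaled TPM in control and 12.01, 13.1, 13.4 and 13.2 in RUS KD on day 5 (log2 fold change 0.33, SE 0.066, limma adjusted p = 0.00485), a call lost with TPM as deposited (adjusted p = 0.122, limma). The day 7 values were 9.18, 8.22, 8.78 and 9.15 in control and 19.4, 17.4, 18.5 and 20.6 in RUS KD (log2 fold change 1.09, SE 0.065, limma adjusted p = 1.25e-06). Kcnn1 was lower on both days, from 6.16 ± 0.578 to 3.96 ± 0.299 on day 5 (log2 fold change −0.62, SE 0.10, limma adjusted p = 0.00124) and from 4.57 ± 0.616 to 3.04 ± 0.690 on day 7 (log2 fold change −0.59, SE 0.16, limma adjusted p = 0.0122). Kcnn3, the most abundant of the class in control on both days, was called on neither: it had 11.3 ± 1.01 and 10.9 ± 1.72 on day 5 and 19.4 ± 0.458 and 19.7 ± 0.893 on day 7, with 95% intervals of the log2 fold change of −0.31 to 0.20 and −0.082 to 0.13. So within a single family, 1 gene rose, 2 fell and 1 was not called.

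Kcnn4, the intermediate-conductance channel known from blood and glial cells, had 1.26, 1.500, 1.99 and 1.53 in control and 0.352, 0.440, 0.458 and 0.515 in RUS KD on day 7 (log2 fold change −1.62, SE 0.18, limma adjusted p = 6.24e-05), the strongest decrease of the class. On day 5 it had 0.764, 0.898, 0.570 and 0.672 in control and 0.435, 0.551, 0.447 and 0.337 in RUS KD (log2 fold change −0.61, SE 0.20, limma adjusted p = 0.0461), and that call was lost under 9 of 16 alternatives, among them the fits without day 5 RUS KD replicate 1, 3 or 4 or day 5 control replicate 1, 2 or 4 (limma adjusted p between 0.0763 and 0.122). The sodium-activated pair moved in opposite directions on day 7. Kcnt1 had 3.12, 3.45, 2.61 and 3.55 in control and 5.17, 5.11, 5.93 and 7.19 in RUS KD (log2 fold change 0.85, SE 0.14, limma adjusted p = 0.000587), and Kcnt2 had 1.100, 1.18, 0.992 and 1.42 in control and 0.462, 0.420, 0.648 and 0.495 in RUS KD (log2 fold change −1.07, SE 0.18, limma adjusted p = 0.000835). Neither pair of groups overlapped, and neither gene was called on day 5, although Kcnt2 was called lower there with TPM as deposited (log2 −0.57, limma adjusted p = 0.0392) and with no trend in eBayes (log2 −0.43, limma adjusted p = 0.0388). Kcnma1, the large-conductance channel and the remaining member beside a RUS binding site, had 0.596 ± 0.176 and 0.526 ± 0.0931 on day 5 (limma adjusted p = 0.693) and 1.72, 1.91, 1.49 and 1.799 in control and 2.81, 2.66, 2.55 and 2.52 in RUS KD on day 7 (log2 fold change 0.59, SE 0.11, limma adjusted p = 0.00142). Kcnu1, a channel of sperm, was called lower on day 5 (1.07 ± 0.179 against 0.628 ± 0.124; log2 fold change −0.69, SE 0.18, limma adjusted p = 0.0189) and lost that call under 4 of 16 alternatives, among them quantile normalization (log2 −0.51, limma adjusted p = 0.0714) and the fits without day 5 RUS KD replicate 2 or day 5 control replicate 2 (limma adjusted p between 0.0518 and 0.0560).

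With 0.1 added before the log2, auxiliary subunits had the largest fold changes of all classes on day 7. Kcne1 and Kcne2, single-pass subunits that change the gating of their partners, lie 47852 bases apart on chromosome 16 and went in opposite directions. Kcne1 had 2.81, 1.797, 2.33 and 2.27 scaled TPM in control and 1.21, 0.854, 0.788 and 0.981 in RUS KD on day 5 (log2 fold change −1.18, SE 0.18, limma adjusted p = 0.000955), and 0.626, 1.73, 0.923 and 0.934 in control and 0.0804, 0.150, 0.150 and 0.0990 in RUS KD on day 7 (log2 fold change −2.32, SE 0.30, limma adjusted p = 0.000152). Kcne2 had 0.363, 0.536, 0.476 and 0.332 in control and 2.23, 2.25, 1.89 and 3.397 in RUS KD on day 7 (log2 fold change 2.26, SE 0.21, limma adjusted p = 1.95e-05). Its day 5 values were 0.306 ± 0.0620 and 0.498 ± 0.172 (adjusted p = 0.151, limma), with overlapping libraries. Across the alternatives, the day 7 log2 fold change ran from −2.98 to −0.85 for Kcne1 and from 1.26 to 2.48 for Kcne2. That of the voltage-gated Kcna2 ran from 1.57 to 1.82. Kcnq1, the pore-forming partner best known for Kcne1, stayed below the level set for the analysis.

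The Kcnip genes encode the calcium-binding KChIP subunits of the A-type channels, and Kcnip3 also acts in the nucleus. Kcnip3 had 49.9, 50.1, 47.5 and 51.8 in control and 42.5, 44.04, 42.4 and 41.3 in RUS KD on day 5 (log2 fold change −0.23, SE 0.048, limma adjusted p = 0.00647). On day 7 the order was the other: 27.1, 26.9, 25.4 and 26.1 in control and 34.4, 35.6, 34.7 and 34.5 in RUS KD (log2 fold change 0.40, SE 0.037, limma adjusted p = 1.94e-05). The groups did not overlap on either day. Kcnip2 was not called on day 5 and was higher on day 7 (0.742 ± 0.0859 against 1.48 ± 0.115; log2 fold change 0.91, SE 0.14, limma adjusted p = 0.000437). Kcnip1 was called higher on day 7 (8.14 ± 0.591 against 9.68 ± 0.991; log2 fold change 0.24, SE 0.086, limma adjusted p = 0.0405), but lost the call under 8 of 17 alternatives, among them the fits without day 7 RUS KD replicate 1, 2 or 4 or day 7 control replicate 2 or 3 (limma adjusted p between 0.0547 and 0.109). Kcnab2 and Kcnmb4 were lower on day 7 alone, and Kcnab1, Kcnab3, Kcnip4, Kcnmb1 and Kcnmb2 were not called. In all, 2 of 11 auxiliary genes were lower and none higher on day 5 (all genes: 17.9% and 14.8%), and 4 of 12 were higher and 3 lower on day 7 (all genes: 23.4% and 25.8%). The class medians were −0.074 and −0.088, and turned to 0.077 and 0.00056 under quantile normalization and to 0.060 on day 7 with genes of at least 1 TPM. The day 7 median was −0.20 without control replicate 2, −0.17 without RUS KD replicate 1 and −0.0082 without control replicate 4.

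Whether RUS KD acted differently on the 2 days was tested as an interaction over the 16 libraries. Its effect was higher on day 7 than on day 5 in 18 of 79 genes and lower in 8, beside 15.2% and 14.6% of all genes; with TPM as deposited the counts were 27 and 6, while those of all 23789 genes tested moved from 3626 and 3464 to 5700 and 2053. Among genes of at least 0.5 TPM, the largest positive differences were those of Kcne2 (1.69, SE 0.33), Kcna3 (1.30, SE 0.24), Kcna2 (1.07, SE 0.14), Kcnt1 (1.05) and Kcnip2 (1.02). The largest negative ones were those of Kcnk5 (−1.33, SE 0.24), Kcne1 (−1.10) and Kcnn4 (−0.9999). That of Kcne1 was lost with 1 added before the log2 (−0.032, limma adjusted p = 0.921). Without day 5 RUS KD replicate 4, the difference was called for Kcna1 (1.03, limma adjusted p = 0.0285), as it was for Kcnj10. The same held for Kcnh7 (0.73, limma adjusted p = 0.0105) and Kcnh5 (0.60, limma adjusted p = 0.04996). Kcnc1 and Kcnip3, lower on day 5 and higher on day 7, both passed the test in limma (0.63, adjusted p = 0.000142, and 0.61, adjusted p = 2.92e-06). Those of Kcnk2, Kcnk3, Kcnk10 and Kcnma1 were lost under 7 of 25, 9 of 24, 6 of 25 and 13 of 25 alternatives. For Kcnk2 these included the fits without day 5 RUS KD replicate 1, 2 or 3, day 5 control replicate 1, day 7 RUS KD replicate 3 or day 7 control replicate 1 (limma adjusted p between 0.0516 and 0.0623); for Kcnk3, those without day 5 RUS KD replicate 1, day 5 control replicate 2 or 3, day 7 RUS KD replicate 4 or day 7 control replicate 1, 2 or 4 (limma adjusted p between 0.0514 and 0.0645); for Kcnk10, those without day 5 control replicate 3, day 7 RUS KD replicate 1 or day 7 control replicate 2 or 3 (limma adjusted p between 0.0520 and 0.0610); and for Kcnma1, those without day 5 RUS KD replicate 2 or 3, day 5 control replicate 2 or 3, day 7 RUS KD replicate 1, 2, 3 or 4 or day 7 control replicate 1 or 3 (limma adjusted p between 0.0515 and 0.0758).

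**Figure D4:**
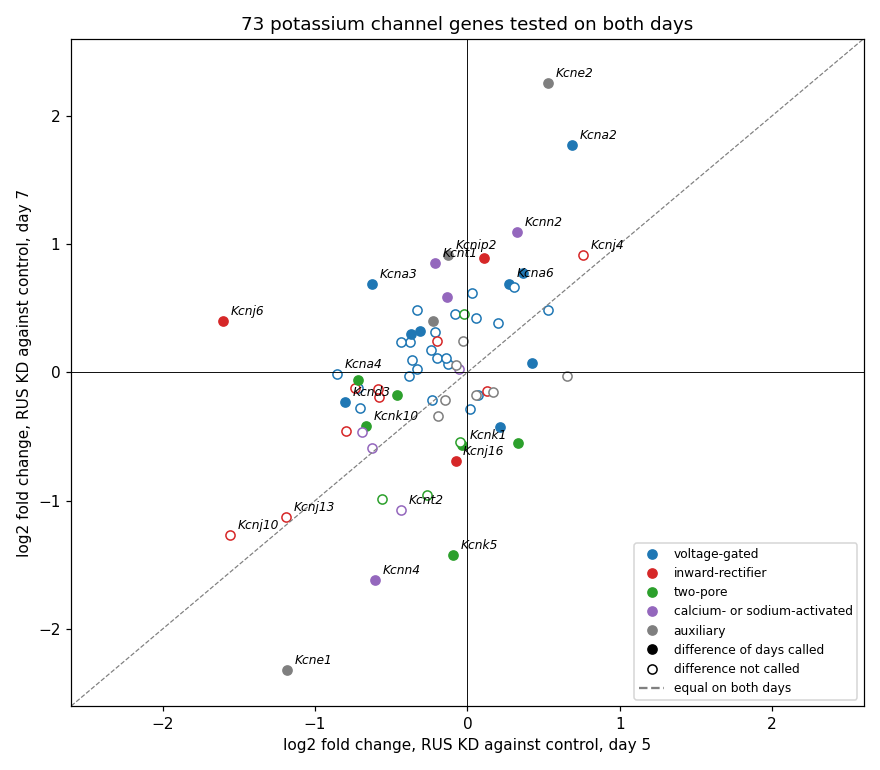
Log2 fold change of RUS KD against control on day 5 (horizontal axis) and day 7 (vertical axis) for the 73 potassium channel genes tested on both days, coloured by class, filled where the difference between the days was called. Kcnj10 and Kcnj13 lie near the dashed line of equal effect, Kcne2 and Kcna2 well above it and Kcnk5 below it.

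In control alone, 24 of 79 genes rose from day 5 to day 7 and 26 fell, beside 26.9% and 21.6% of all genes. In RUS KD, 32 rose and 22 fell, beside 35% and 25.8%. With TPM as deposited the counts were 28 and 21 in control and 38 and 11 in RUS KD. Those of all 23789 genes tested moved in the same way, from 6394 and 5133 to 8573 and 3434 in control and from 8317 and 6135 to 11801 and 3545 in RUS KD, as the median log2 change of all genes moved from 0.067 to 0.20 and from 0.13 to 0.41. Levels of the days stand in separate tables and were scaled together for this comparison. Leaving out genes below 0.5 TPM on average, those that rose most in control were Kcnj16 and Kcna3 (1.78, SE 0.17), and the one that fell most was Kcns1 (−1.79, SE 0.13). Kcnj10 rose in both arms, by 0.45 in control and 0.73 in RUS KD (limma adjusted p = 0.000511 and 2.90e-06). Kcna6 fell in both, by 1.54 and 1.14 on the log2 scale. Kcna2 was not called in control (−0.19; log2 −0.37, limma adjusted p = 0.00415 under quantile normalization) and rose in RUS KD (0.88), and Kcnk5 rose in control (0.54) and fell in RUS KD (−0.79). The rise of Kcnk5 in control was not called without day 7 control replicate 2 (limma adjusted p = 0.0651), nor under quantile normalization (log2 0.30, limma adjusted p = 0.185). All 4 Kcnip genes tested fell in both arms. These 2 comparisons have no library in common.

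The proteins that work beside these channels were counted in a list of 29 genes: HCN channels, channel partners, potassium-chloride transporters and the sodium pump. On day 5, 2 of 26 tested were higher and 4 lower in RUS KD, beside 14.8% and 17.9% of all genes, and on day 7, 15 of 28 were higher and 3 lower, beside 23.4% and 25.8%, with medians of −0.13 and 0.29 on the log2 scale. Atp1b2, the glial beta subunit of the sodium pump, which imports the potassium that channels release, rose from 248 to 481 on day 7 (log2 fold change 0.95, SE 0.070, limma adjusted p = 4.20e-06). The neuronal chloride transporter Slc12a5, which uses the potassium gradient, was higher on day 7 as well (0.83 on the log2 scale). Cntnap2, which gathers Shaker channels beside the nodes of axons, was lower on both days (−0.62 and −0.29).

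Several members are neighbours in the genome, and no test of neighbours was run. Kcna3, Kcna2 and Kcna10 lie within one stretch of chromosome 3, and Kcna5, Kcna1 and Kcna6 within one of chromosome 6. Of the first group, Kcna2 and Kcna3 were higher on day 7, and of the second only Kcna6 was called. Kcnj9 starts 11891 bases from Kcnj10 and was lower on day 5, as Kcnj10 was, but was not called on day 7. Kcnj2, 38195 bases from Kcnj16, was called on neither day. Exons of Kcna6, Kcnd3, Kcnh7, Kcnj3, Kcnk1, Kcnk2, Kcnk3, Kcnma1, Kcnn1, Kcnn2 and Kcnt2 overlap an antisense gene, so their values may hold reads of that partner.

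The promoter windows of the channel genes were set beside all promoters. Over the 82 windows found for 58 of the channel genes, 50% held a GC box, 30.5% a CCAAT box, 6.10% a TATA box, 4.88% the Rbpj core, 25.6% CAGCTG and 18.3% CAGATG. Over all 32851 windows the shares were 35.7%, 37.4%, 13.6%, 6.38%, 16.3% and 17.2%, and the median G and C content was 59% for the channel genes and 52.7% for all. A match is a description of letters and not a site of binding.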

How the data were processed

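RNA of 16 libraries, 4 of each shRNA and day, was polyA-enriched and sequenced by the authors, who aligned the reads with STAR to mm10 and quantified genes with RSEM against a GRCm38 annotation. The deposited values are TPM per gene and library, in 1 table for each day. Each table also holds a base mean, the authors' mean signal over libraries, which was used for no test, and columns of the authors' own comparisons (fold changes and p-values), which were not used. No source used here states strand-specific counting.

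To scale the libraries, each gene with 1 TPM or more throughout was divided by its geometric mean, and the median of these ratios was each library's factor. After division by it, 0.1 was added and log2 taken. Genes with a mean TPM of 0.1 or more were fitted with limma 3.58.1 in R 4.3.3 (lmFit and eBayes with a trend), per day for RUS KD against control, and over all libraries for the comparison of days and the interaction. Adjusted p-values follow Benjamini and Hochberg over all genes tested. The scripts were tested on simulated data. Gm20754 was tested by exact permutation of deposited TPM. Gene positions and exon overlaps come from GENCODE (GRCm38), promoters from RefSeq.

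Groups came from the sample labels. Named with values were the most abundant genes of each class, those with opposite calls on the days, and those beside a RUS binding site. Among genes of at least 0.5 TPM on average, those with the largest called changes on each day, by class, or between days in control were named too. The lists were neurons, astrocytes, oligodendrocyte lineage, microglia, endothelial, mural and fibroblast cells, neural stem and cycling cells, and other potassium-handling genes. Some genes are not reported here by name and stand in the counts and sums alone. Members and lists were chosen with earlier results of these data known. Alternatives were another value added before the log2, other filters, other scalings, no trend, the replicate block and each library left out.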

Additional observations from a re-analysis of the deposited data

Results flagged for a closer look

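In 4 of the 148 groups of 4 libraries looked at, a single library lay far from the other 3 for a named gene, where chance gives about 1 in 20 groups. Kcna2 was 7.50 scaled TPM in replicate 4 of RUS KD on day 5, with the others between 5.60 and 5.86. Kcnj16 was 3.63 in replicate 3 of the same group, with the others between 4.30 and 4.42. On day 7, Kcnj12 was 0.987 in replicate 3 of RUS KD, with the others between 0.864 and 0.872, and Kcnk3 was 1.32 in replicate 4, with the others between 0.901 and 0.967.

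Of the 39 named genes, chosen in part for large called changes, 20 had a RUS KD effect that differed between the days by the interaction test. It was higher on day 7 in 15 and lower in 5. Over all 79 channel genes tested the counts were 18 and 8, beside 15.2% and 14.6% of all genes. With TPM as deposited the 79 genes gave 27 and 6. On the log2 scale the difference (day 7 minus day 5) was 1.07 for Kcna2, 1.30 for Kcna3, 0.41 for Kcna6, 0.63 for Kcnc1 and 0.55 for Kcnd3 among the voltage-gated genes. It was 0.77 for Kcnj3 and −0.63 for Kcnj16 among the inward rectifiers. In the two-pore class it was 0.23 for Kcnk10, 0.27 for Kcnk2, 0.65 for Kcnk3, −0.54 for Kcnk1 and −1.33 for Kcnk5. In the calcium- or sodium-activated class it was 0.71 for Kcnma1, 0.75 for Kcnn2, 1.05 for Kcnt1 and −0.9999 for Kcnn4, and among auxiliary genes 1.69 for Kcne2, 1.02 for Kcnip2, 0.61 for Kcnip3 and −1.10 for Kcne1.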

How the results depend on the processing

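Of the checks of single named genes under the alternatives, 3071 stayed on the same side of the threshold in the same direction, 124 lost the call and 40 gained one, and no called gene changed direction. The counts of genes called moved by over 1.5 times as follows. With TPM as deposited, 2 channel genes were higher in RUS KD on day 5, and 11 fell from day 5 to day 7 in RUS KD. Quantile normalization gave 11 higher and 12 lower on day 5. Over genes of at least 1 TPM, 11 were lower on day 5, and 13 rose in control and 19 in RUS KD between the days, where fewer genes were tested. The class medians moved as well. For the voltage-gated class on day 5 the median was −0.063 with 1 added before the log2, −0.012 over genes of at least 1 TPM, −0.29 with TPM as deposited and 0.020 under quantile normalization, and on day 7 it was 0.069 with 1 added, 0.21 over genes of at least 1 TPM and 0.26 under quantile normalization. For the inward-rectifier class it was −0.18 with 1 added and −0.40 under quantile normalization on day 5, and −0.062 with 1 added, −0.42 over genes of at least 1 TPM and −0.042 under quantile normalization on day 7. For the two-pore class it was −0.46 over genes of at least 1 TPM and −0.23 with TPM as deposited on day 5, and −0.36 with 1 added on day 7. For the calcium- or sodium-activated class it was −0.18 with 1 added, −0.13 over genes of at least 1 TPM, −0.47 with TPM as deposited and −0.15 under quantile normalization on day 5, and 0.30 over genes of at least 1 TPM on day 7. For the auxiliary class it was −0.23 with TPM as deposited and 0.077 under quantile normalization on day 5, and 0.060 over genes of at least 1 TPM and 0.00056 under quantile normalization on day 7. The cause of these moves was not tested.

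Leaving out 1 library at a time gave 5 to 6 genes higher and 16 to 20 lower on day 5, 17 to 19 higher and 15 to 17 lower on day 7, and an interaction that was higher in 15 to 24 and lower in 6 to 8. The medians ran from −0.64 to −0.37 for the inward rectifiers, from −0.27 to −0.075 for the two-pore class and from −0.43 to −0.24 for the calcium- or sodium-activated class on day 5, and from 0.14 to 0.22 for the voltage-gated and from −0.20 to −0.0082 for the auxiliary class on day 7. Gm20754 ran from 32.9% to 94.7% of control on day 5 and from 25.2% to 57.7% on day 7. The depth of the libraries is unknown, which limits what can be said of genes below 1 TPM.

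The replicate numbers do not pair the samples: same-numbered libraries of a day deviated from their group means with correlations of −0.11 to 0.033, and 2 of 8 matched their own number best. With the replicate number as a block, 11 channel genes were lower on day 5, 15 rose and 15 fell in control between the days, and 13 fell in RUS KD. Among the calls lost were those of Kcnc1, Kcnip3, Kcnj12, Kcna6 and Kcnu1 on day 5 (limma adjusted p = 0.0502, 0.0544, 0.0628, 0.0721 and 0.0729). The rises of Kcnj10 and Kcnk5 in control (limma adjusted p = 0.0663 and 0.235) and the interaction of Kcnj3 (limma adjusted p = 0.0510) were lost too.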
